A study of Saccharomyces cerevisiae with 24 samples.

Results

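Transcript levels of Saccharomyces cerevisiae cells that carry the activator fusion SEF1-VP16 were compared with those of the wild type (WT) during growth in the glycerol medium YPGly. The comparison was defined by the sample titles and held 8 of the 24 arrays of the series, 4 of SEF1-VP16 in YPGly and 4 of WT in YPGly. Both strains are haploids of mating type a in the W303 background and share its mutant alleles of ADE2, HIS3, TRP1, URA3 and LEU2, which make them auxotrophic, and can1-100. In SEF1-VP16, which is 1 clone, the C-terminus of Sef1 was joined to the transcription-activating region of herpesvirus VP16 at the SEF1 locus, under the native promoter, and the marker was excised to leave an FRT site. WT carries SEF1 without the fusion. The other strain of the series, sef1, has SEF1 replaced by a NatMX4 cassette. Cultures were grown overnight in YPD, the glucose medium, diluted to a density of 0.2 (OD600 per ml) and kept at 30 °C for 5.5 h in either medium, with 4 biological replicates of each strain in each. One-colour arrays were hybridised with labelled cDNA made by oligo-dT priming. The question was which transcripts differ when Sef1 carries a strong activation domain in cells that respire.

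Sef1 is a zinc cluster transcription factor, a fungal family that binds sites containing CGG triplets, and VP16 recruits the general transcription machinery to the promoters where its carrier sits. Glycerol cannot be fermented, so cells in YPGly depend on the tricarboxylic acid (TCA) cycle and the respiratory chain, many of whose enzymes need heme or iron-sulfur clusters. Budding yeast acquires iron by reducing it at the cell surface or by importing siderophores, the iron chelators made by other microbes, and the activators Aft1 and Aft2 switch on these genes when iron is scarce.

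Levels are given as log2 intensity minus the 75th percentile of the array, so that 0 is the 75th percentile and 1 unit is a 2-fold difference. The 75th percentile was 5320, 10028, 11376 and 9997 intensity units on the SEF1-VP16 arrays and 9595, 8657, 9606 and 11938 units on the WT arrays, and replicate 1 of SEF1-VP16 was thus the dimmest. Between 90.9% and 97.5% of probes on an array of the series passed the scanner software's background test (called well above background from here on), and saturation flagged no spot. Across probes, which are not independent replicates, SEF1-VP16 arrays correlated with each other with r between 0.992 and 0.998, WT arrays between 0.990 and 0.997, and the groups between 0.986 and 0.994. The SEF1-VP16 arrays lay on 1 slide together with the sef1 arrays in YPGly, whereas the WT arrays lay on another, by the slide identifiers in the file headers. The names of the files give the arrays of both slides the same identifier. Slide and strain therefore cannot be told apart within these 8 arrays, and the values against sef1, which were measured within a slide, are given for the leading genes.

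The deletion, the mating type and the medium were checked first. None of these checks tells SEF1-VP16 from WT, so those labels were not checked against each other. SEF1 was at −3.75, −4.02, −3.98 and −4.31 on the SEF1-VP16 arrays and at −3.04, −3.62, −3.36 and −3.75 on the WT arrays, well above background on all 8. None of the 4 sef1 arrays had it well above background, and SEF1-VP16 was at least 22.1-fold above sef1, a bound that sets the SEF1-VP16 mean against the lowest detectable level on each sef1 array. The ranges of SEF1-VP16 and WT met at about −3.75, and the difference of −0.58 ± 0.16 on the log2 scale (standard error, n = 4 each) did not pass the test (limma adjusted p 0.13). With slide as a term the estimate was 1.08, which rests on sef1 values below background. All 7 genes specific to mating type a were well above background on all 8 arrays, and both α-factor genes, MF(ALPHA)1 and MF(ALPHA)2, were on none. SAG1 and STE3, the other α-specific genes on the list, were well above background on all 8 arrays, with differences of 0.07 and −0.0035. The 7 markers of growth without fermentable sugar (ICL1, MLS1, PCK1, FBP1, ADH2, ACS1 and JEN1) were above their YPD level by 4.68 to 8.41 in SEF1-VP16 and by 4.08 to 8.22 in WT.

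A probe was called when its limma p, adjusted by the Benjamini-Hochberg method over the 5641 probes tested, was below 0.05 and its level differed 1.5-fold or more. Of these probes 62 were called (1.10%), 51 higher in SEF1-VP16 (0.904%) and 11 lower (0.195%). Genes of siderophore uptake, of the TCA and methylcitrate cycles and a small set of iron-sulfur assembly and mitochondrial genes were among those that rose. The increases ran from 0.59 to 3.42 with a median of 1.12, and the decreases from −1.22 to −0.63 with a median of −0.70. The median over all tested probes was −0.02. All 51 and all 11 lay outside the range of the other group, as did 4.50% of all tested probes upwards and 6.17% downwards. All called probes were well above background on all 8 arrays. At any size of difference 103 probes passed the adjustment (1.83%).

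**Figure D1:**
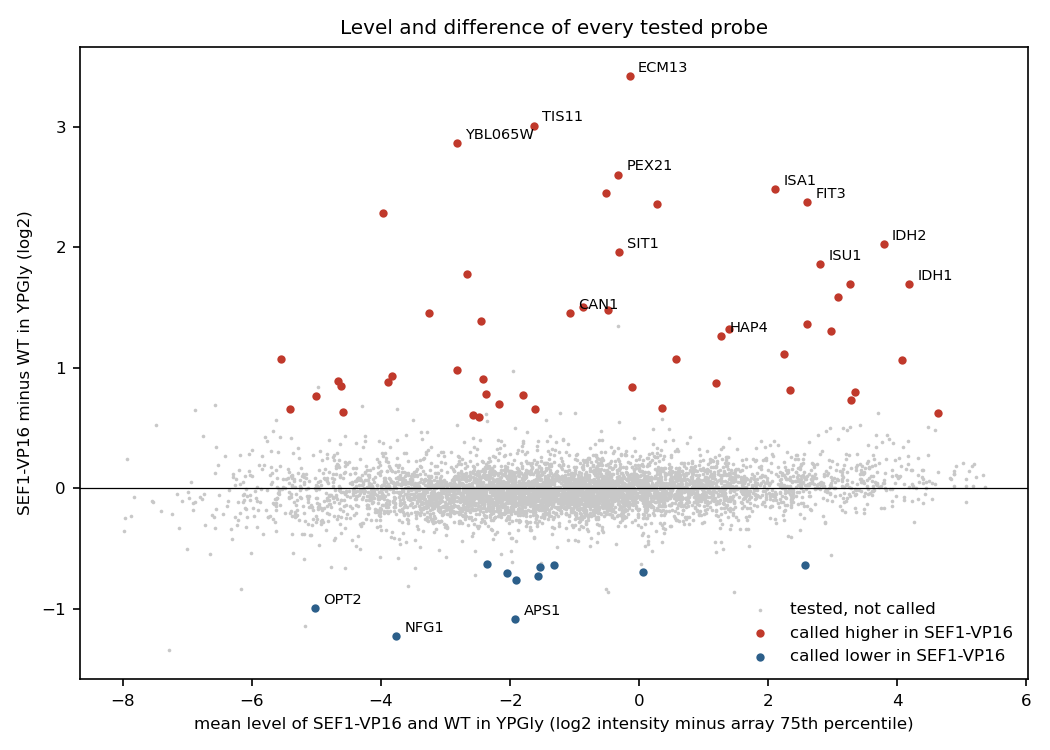
Each point is 1 of the 5641 tested probes, with the mean level of SEF1-VP16 and WT in YPGly (log2 intensity minus the array's 75th percentile) on the x axis and the difference SEF1-VP16 minus WT (log2) on the y axis. The 51 probes called higher spread over the whole range of levels and reach 3.42 (ECM13), while the 11 called lower end at −1.22 (NFG1).

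The largest increase was that of ECM13, a gene of unknown function on chromosome II. ECM13 was at 1.77, 1.57, 1.42 and 1.48 in SEF1-VP16 and at −1.91, −1.87, −1.79 and −1.88 in WT. No other transcript separated the strains so widely, a difference of 3.42 ± 0.08 or 10.7-fold (limma adjusted p 9.7e-09). The sef1 arrays, at −1.27, −1.17, −1.56 and −1.63, lay a little above WT. PEX21, which encodes a co-receptor that helps Pex7 import proteins with the PTS2 signal into peroxisomes, was at 1.25, 0.91, 0.86 and 0.87 in SEF1-VP16 and at −1.58, −1.60, −1.77 and −1.57 in WT (2.60 ± 0.10, limma adjusted p 2.8e-07). Replicate 1 stood above the other SEF1-VP16 arrays for PEX21, and all 4 lay far above WT. Against sef1 PEX21 differed by 2.57 ± 0.09. The other 3 receptor genes of peroxisomal import on the list, PEX5, PEX7 and PEX18, were not called and lay between −0.22 and 0.06. ECM13, PEX21, AFT2, NDE1 and CIT3 were called among the 6 genes that the study singled out as candidates, a choice made on these samples and no independent evidence. The sixth, MIG2, a repressor of glucose-repressed genes, was at −4.09, −4.42, −4.76 and −4.94 in SEF1-VP16 and at −5.49, −4.90, −5.26 and −5.91 in WT. Its groups overlapped, and the difference of 0.84 ± 0.23 was not called (limma adjusted p 0.12). MIG2 was called when all 24 arrays were fitted at once (limma adjusted p 0.00363), with the replicate block (adjusted p 0.049) and with slide as a term (1.58).

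Iron-sulfur assembly was represented by ISA1 and ISU1. ISA1, whose product is needed to mature 4Fe-4S proteins such as aconitase in mitochondria, was at 3.49, 3.32, 3.29 and 3.28 in SEF1-VP16 and at 1.01, 0.93, 0.97 and 0.56 in WT. ISU1, the scaffold on which clusters are assembled, was at 3.79, 3.74, 3.71 and 3.72 in SEF1-VP16 and at 1.74, 2.09, 1.71 and 1.96 in WT. The SEF1-VP16 arrays lay close together for both genes and far from WT, with differences of 2.48 ± 0.10 (limma adjusted p 5.5e-07) and 1.86 ± 0.09 (adjusted p 1.6e-06). Against sef1 the differences were 2.14 ± 0.06 and 1.52 ± 0.07. The other 13 genes of the list of 15, among them the cysteine desulfurase gene NFS1, the frataxin gene YFH1 and the ISU1 paralog ISU2 (0.12 ± 0.09), were not called and lay between −0.02 and 0.29. With slide as a term ISU2 was called (0.59, limma adjusted p 0.0006), whereas against sef1 it was not (0.30 ± 0.07). The 2 calls among 15 genes stand beside 0.904% of all tested probes called higher. The list median was 0.09, beside −0.02 for all tested probes.

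**Figure D2:**
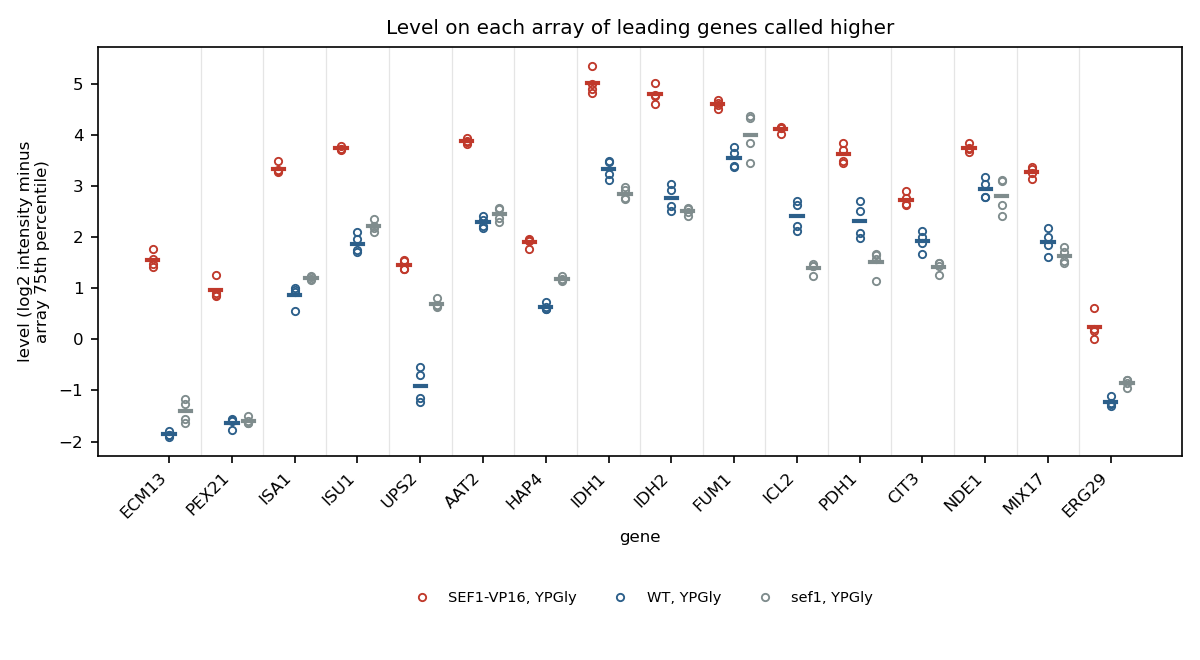
Level of 16 genes called higher on each array in YPGly (log2 intensity minus the array's 75th percentile), SEF1-VP16 in red, WT in blue and sef1 in grey, with circles for arrays and bars for group means (n = 4 each). In every gene shown the SEF1-VP16 circles lie above all WT circles. The sef1 circles lie between both strains for UPS2, HAP4, ECM13, ISA1, ISU1 and ERG29, and below them for ICL2, PDH1, CIT3 and IDH1. For the other genes shown they overlap WT.

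Among the 12 TCA cycle genes that the study assigned to Sef1 binding peaks, IDH1, IDH2, FUM1 and CIT3 were the 4 called higher, none was called lower, and the median was 0.47. Of all tested probes 0.904% were called higher, with a median of −0.02. IDH1 and IDH2, which encode the subunits of the NAD-dependent isocitrate dehydrogenase, led the list. IDH2 was at 5.02, 4.79, 4.61 and 4.77 in SEF1-VP16 and at 2.61, 2.93, 2.52 and 3.04 in WT (2.02 ± 0.13, limma adjusted p 1.5e-05). IDH1 was at 5.36, 4.90, 4.83 and 5.01 in SEF1-VP16 and at 3.24, 3.50, 3.11 and 3.48 in WT (1.69 ± 0.13, limma adjusted p 5.6e-05). WT replicates 2 and 4 were the higher ones of their group for both genes, and no WT array came near SEF1-VP16. Against sef1 IDH2 differed by 2.29 ± 0.09 and IDH1 by 2.17 ± 0.11. FUM1, the fumarase gene, was at 4.63, 4.52, 4.59 and 4.69 in SEF1-VP16 and at 3.38, 3.77, 3.39 and 3.65 in WT (1.06 ± 0.10, limma adjusted p 0.00021). Its sef1 arrays, at 3.85, 3.46, 4.34 and 4.38, were more spread than either and came close to the lowest SEF1-VP16 array. YOR135C, an open reading frame that overlaps IDH2 on the opposite strand by its systematic name, rose by 2.28 ± 0.20. The strand read by the probes is not given in the sources used here, so its signal and that of IDH2 may not be separate.

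The remaining 8 TCA cycle genes under peaks were not called and lay between −0.33 (SDH9) and 0.51 (ACO1). ACO1, the aconitase gene, was at 5.23, 4.60, 4.44 and 4.66 in SEF1-VP16 and at 4.05, 4.50, 4.20 and 4.14 in WT. SEF1-VP16 replicate 3 fell within the range of WT, and the difference of 0.51 ± 0.16 did not pass (limma adjusted p 0.17). CIT1, the main citrate synthase gene, and MDH1, the mitochondrial malate dehydrogenase gene, differed by 0.49 ± 0.13 and 0.44 ± 0.11 (limma adjusted p 0.11 and 0.087). IDP2, the cytosolic NADP-dependent isocitrate dehydrogenase gene, passed the adjustment at 0.38 ± 0.08 (limma adjusted p 0.035) but was under the fold change minimum. Against sef1 ACO1 (0.75 ± 0.22, limma adjusted p 0.034) and CIT1 (0.82 ± 0.19, adjusted p 0.013) were called higher. MDH1 (0.47) and IDP2 (0.43) were not called against sef1. With slide as a term CIT1 (0.73) and IDP2 (0.65) were called. None of the 16 TCA cycle genes under no peak was called, over a range of −0.44 to 0.24 and with a median of 0.04.

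The methylcitrate cycle, which breaks down propionyl-CoA in mitochondria, rose in all 3 of its genes, beside 0.904% of all tested probes. ICL2, which encodes 2-methylisocitrate lyase, was at 4.16, 4.03, 4.13 and 4.15 in SEF1-VP16, at 2.11, 2.63, 2.23 and 2.71 in WT and at 1.43, 1.25, 1.43 and 1.48 in sef1. The 3 strains did not overlap, with a difference of 1.70 ± 0.13 against WT (limma adjusted p 5.6e-05) and of 2.72 ± 0.07 against sef1 (adjusted p 6.6e-09). PDH1, which encodes 2-methylcitrate dehydratase, was at 3.46, 3.50, 3.71 and 3.85 in SEF1-VP16, at 2.00, 2.52, 2.08 and 2.70 in WT and at 1.58, 1.15, 1.68 and 1.64 in sef1. CIT3, which encodes the citrate and methylcitrate synthase of this cycle, was at 2.64, 2.65, 2.90 and 2.76 in SEF1-VP16, at 1.68, 2.00, 1.89 and 2.13 in WT and at 1.43, 1.27, 1.502 and 1.5002 in sef1. For PDH1 (1.31 ± 0.16, limma adjusted p 0.0019) and CIT3 (0.81 ± 0.10, adjusted p 0.0025) the same order of SEF1-VP16, WT and sef1 held without overlap. PDH1 and CIT3 are next to each other on chromosome XVI. In the glyoxylate shunt, on whose list of 3 ICL2 also stands, MLS1, the malate synthase gene, rose by 0.73 ± 0.10 (limma adjusted p 0.0031), while ICL1, the isocitrate lyase gene, differed by 0.08 ± 0.10 (adjusted p 0.74). MLS1 was not called against sef1 (0.48 ± 0.15, adjusted p 0.042, under the fold change minimum) or with slide as a term (0.28).

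Several other genes of mitochondria and their control rose. UPS2, whose product carries phosphatidylserine across the mitochondrial intermembrane space, was at 1.38, 1.53, 1.38 and 1.55 in SEF1-VP16, at −1.15, −0.70, −1.23 and −0.53 in WT and at 0.81, 0.68, 0.64 and 0.66 in sef1. The sef1 arrays thus lay nearer to SEF1-VP16 than to WT, and the difference was 2.36 ± 0.15 against WT (limma adjusted p 1.3e-05) but 0.76 ± 0.07 against sef1 (adjusted p 5.3e-05). HAP4, the regulated activation subunit of the Hap2/3/4/5 complex that drives respiratory genes, was at 1.92, 1.95, 1.78 and 1.96 in SEF1-VP16, at 0.64, 0.59, 0.74 and 0.59 in WT and at 1.19, 1.16, 1.23 and 1.14 in sef1. Its groups were tight and separate, with 1.26 ± 0.07 against WT (limma adjusted p 3.8e-06) and 0.72 ± 0.06 against sef1 (adjusted p 4.0e-05). HAP4 was the only one of 16 listed respiratory activators that was called, beside 0.904% of all tested probes called higher. The others, which include CAT8, ADR1, HAP1 and RTG1, lay between −0.14 and 0.17.

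AAT2, the cytosolic aspartate aminotransferase gene, was at 3.95, 3.88, 3.82 and 3.86 in SEF1-VP16 and at 2.23, 2.41, 2.19 and 2.33 in WT (1.59 ± 0.07, limma adjusted p 7.3e-07). MIX17, which encodes a small protein of the mitochondrial intermembrane space, was at 3.34, 3.26, 3.14 and 3.37 in SEF1-VP16 and at 1.85, 2.19, 1.61 and 2.01 in WT (1.36 ± 0.11, limma adjusted p 0.00012). Against sef1 AAT2 differed by 1.42 ± 0.07 and MIX17 by 1.64 ± 0.09. ERG29, a gene linked to sterol synthesis and iron homeostasis, rose by 1.48 ± 0.12, NDE1, an external NADH dehydrogenase gene of the inner membrane, by 0.80 ± 0.10, PIC2, a mitochondrial carrier gene for copper and phosphate, by 0.88 ± 0.15, and PET9, the main ADP/ATP carrier gene, by 0.62 ± 0.12. Against sef1, within a slide, NDE1 was called higher (0.93 ± 0.14, limma adjusted p 0.0019). It was not called with slide as a term (0.55, limma adjusted p 0.067), which is a different contrast. PET9 was called neither against sef1 (0.32 ± 0.15, adjusted p 0.14) nor with slide as a term (0.39). The structural genes of the respiratory chain and ATP synthase did not follow. None of 33 was called, their range was −0.48 to 0.21 and their median −0.04.

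Iron genes rose mainly through siderophore uptake. Of the 7 genes of that list 6 were called higher, against 0.904% of all tested probes, and its median was 1.77, beside −0.02 for all tested probes. FIT2 and FIT3 encode cell wall mannoproteins that retain siderophore iron. FIT3 was at 3.73, 3.93, 3.82 and 3.67 in SEF1-VP16 and at 0.96, 1.49, 0.83 and 2.39 in WT (2.37 ± 0.28, limma adjusted p 0.0017). FIT2 was at 1.02, 0.85, 0.47 and 0.53 in SEF1-VP16 and at −2.41, −1.80, −2.43 and −0.31 in WT (2.45 ± 0.40, limma adjusted p 0.012). SEF1-VP16 arrays were alike, whereas WT replicate 4 stood well above the other WT arrays for both genes. The other gene of the family, FIT1, was at −2.77, −2.98, −2.86 and −2.97 in SEF1-VP16 and at −3.05, −3.33, −3.06 and −3.21 in WT. FIT1 differed by 0.27 ± 0.08 and was not called (limma adjusted p 0.16).

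The siderophore transporters followed FIT2 and FIT3. SIT1, the ferrioxamine B transporter gene, was at 0.92, 0.66, 0.65 and 0.44 in SEF1-VP16 and at −1.78, −1.49, −1.82 and −0.07 in WT. ARN1, a transporter gene for ferrichrome-type siderophores, was at −1.54, −1.62, −1.72 and −2.28 in SEF1-VP16 and at −3.71, −3.81, −3.98 and −2.75 in WT. WT replicate 4 was again the highest of its group, and the differences were 1.96 ± 0.33 (limma adjusted p 0.014) and 1.77 ± 0.26 (adjusted p 0.0054). ARN2, the triacetylfusarinine C transporter gene, was at 0.03, −0.02, −0.14 and −0.32 in SEF1-VP16 and at −1.69, −1.88, −1.76 and −1.14 in WT (1.504 ± 0.15, limma adjusted p 0.00045). ENB1, the enterobactin transporter gene, rose by 0.91 ± 0.11 (adjusted p 0.0016). Against sef1 all 6 were called higher, from 0.76 (ENB1) to 2.64 (FIT3). By the methods' test, which uses each gene's own variance, 4 of the 6 siderophore calls were lost, namely FIT2 (adjusted p 0.112), FIT3 (0.0529), SIT1 (0.121) and ARN1 (0.0825), and ARN2 and ENB1 kept theirs. The call of SIT1 was also lost without WT replicate 1, 2 or 3 or SEF1-VP16 replicate 3, with estimates from 1.78 to 1.97 and adjusted p from 0.050 to 0.053. These transporters belong to 1 family with similar sequences, so their probes may share some signal.

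**Figure D3:**
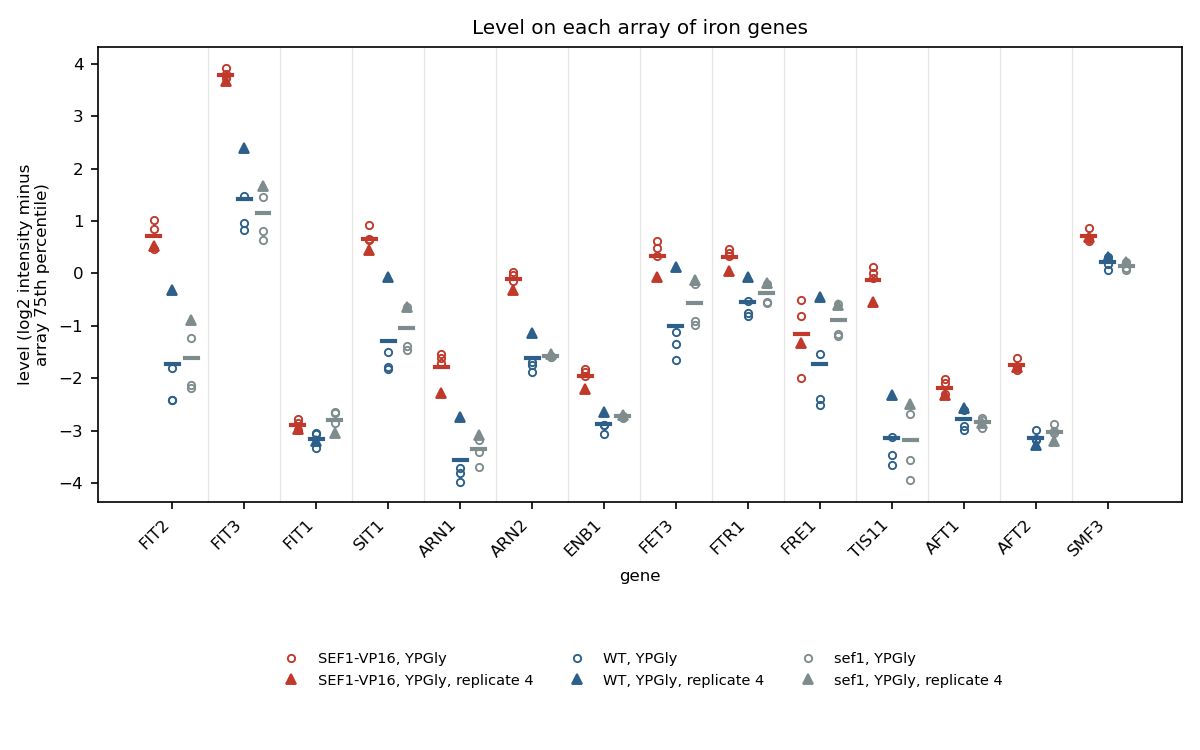
Level of 14 iron genes on each array in YPGly (log2 intensity minus the array's 75th percentile), SEF1-VP16 in red, WT in blue and sef1 in grey, with replicate 4 of each strain as a triangle, the other arrays as circles and group means as bars (n = 4 each). SEF1-VP16 lies above all WT arrays for every gene shown except FET3 and FRE1. The WT triangle lies above the other WT arrays for FIT2, FIT3, SIT1, ARN1, ARN2, ENB1, TIS11, AFT1, FET3, FTR1 and FRE1.

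Over the 7 siderophore genes the mean level was −0.06, −0.16, −0.24 and −0.45 on the SEF1-VP16 arrays, −2.08, −1.98, −2.16 and −1.10 on the WT arrays and −1.91, −1.92, −1.54 and −1.46 on the sef1 arrays. SEF1-VP16 replicate 4 was thus the lowest of its group and WT replicate 4 the highest of its own, and the strains still did not overlap. WT replicate 4 was the highest WT array for 6 of the 7 genes, and for 1274 of all 5641 tested probes. Its part in the results was not tested beyond leaving it out. Without it FIT2, FIT3, SIT1, ARN1, ARN2 and ENB1 remained called.

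Reductive iron uptake gave 1 call, higher, among 11 tested genes, with a median of 0.34. Of all tested probes 0.904% were called higher, with a median of −0.02. FTR1, the high-affinity iron permease gene, was at 0.47, 0.39, 0.33 and 0.04 in SEF1-VP16 and at −0.75, −0.52, −0.82 and −0.07 in WT (0.84 ± 0.16, limma adjusted p 0.024). FET3, whose multicopper oxidase works with Ftr1, was at 0.61, 0.49, 0.32 and −0.06 in SEF1-VP16 and at −1.34, −1.13, −1.65 and 0.12 in WT. WT replicate 4 of FET3 lay above SEF1-VP16 replicate 4, and the difference of 1.34 ± 0.33 was not called (limma adjusted p 0.087). Without WT replicate 4 FET3 was called at 1.72 (adjusted p 0.00051), as it was when all 24 arrays were fitted at once (limma adjusted p 0.00423) and with slide as a term (1.48). The call of FTR1 was lost without WT replicate 1, 2 or 3 or SEF1-VP16 replicate 2 or 3, at 0.75 to 0.85, and with the replicate block (adjusted p 0.072). FRE1, a ferric reductase gene, was at −1.99, −0.50, −0.81 and −1.34 in SEF1-VP16 and at −2.40, −1.54, −2.52 and −0.45 in WT. It varied widely within each strain, and the strains overlapped (0.57 ± 0.45, limma adjusted p 0.60).

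Of 11 listed genes of iron regulation and economy 3 were called higher, beside 0.904% of all tested probes. TIS11, which encodes an RNA-binding protein that promotes decay of mRNAs for iron-rich proteins at low iron, was at 0.12, −0.09, 0.01 and −0.55 in SEF1-VP16 and at −3.47, −3.12, −3.65 and −2.31 in WT. The gap between the strains was 3.01 ± 0.26 or 8.05-fold (limma adjusted p 0.00016), the second largest of all, and the sef1 arrays at −3.95, −3.57, −2.68 and −2.49 overlapped those of WT. AFT2, one of the iron-responsive activator genes, was at −1.62, −1.84, −1.79 and −1.78 in SEF1-VP16 and at −2.98, −3.16, −3.18 and −3.27 in WT (1.39 ± 0.08, limma adjusted p 6.4e-06). WT replicate 4 was the lowest of its group for AFT2. Against sef1 TIS11 differed by 3.04 ± 0.29 and AFT2 by 1.28 ± 0.08. AFT1, the other such activator gene, was at −2.02, −2.10, −2.31 and −2.32 in SEF1-VP16 and at −2.62, −2.92, −2.99 and −2.57 in WT (0.59 ± 0.11, limma adjusted p 0.029). AFT1 lay at the edge of the fold change minimum and lost its call without WT replicate 2 or 3 or any 1 SEF1-VP16 array (0.51 to 0.63), with the other background correction (0.55), with the deposited log2 table (0.58) and with no intensity minimum (adjusted p 0.061). YGL072C, an open reading frame beside AFT1 on the opposite strand by its name, was called at 0.85 ± 0.16. That call was lost with the replicate block (limma adjusted p 0.073), with no intensity minimum (adjusted p 0.055) and without WT replicate 1 or 3 or SEF1-VP16 replicate 2 or 3 (0.74 to 0.86). SMF3, a vacuolar iron transporter gene, passed the adjustment at 0.50 ± 0.08 (limma adjusted p 0.012) and was under the fold change minimum. The list median was 0.37.

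**Figure D4:**
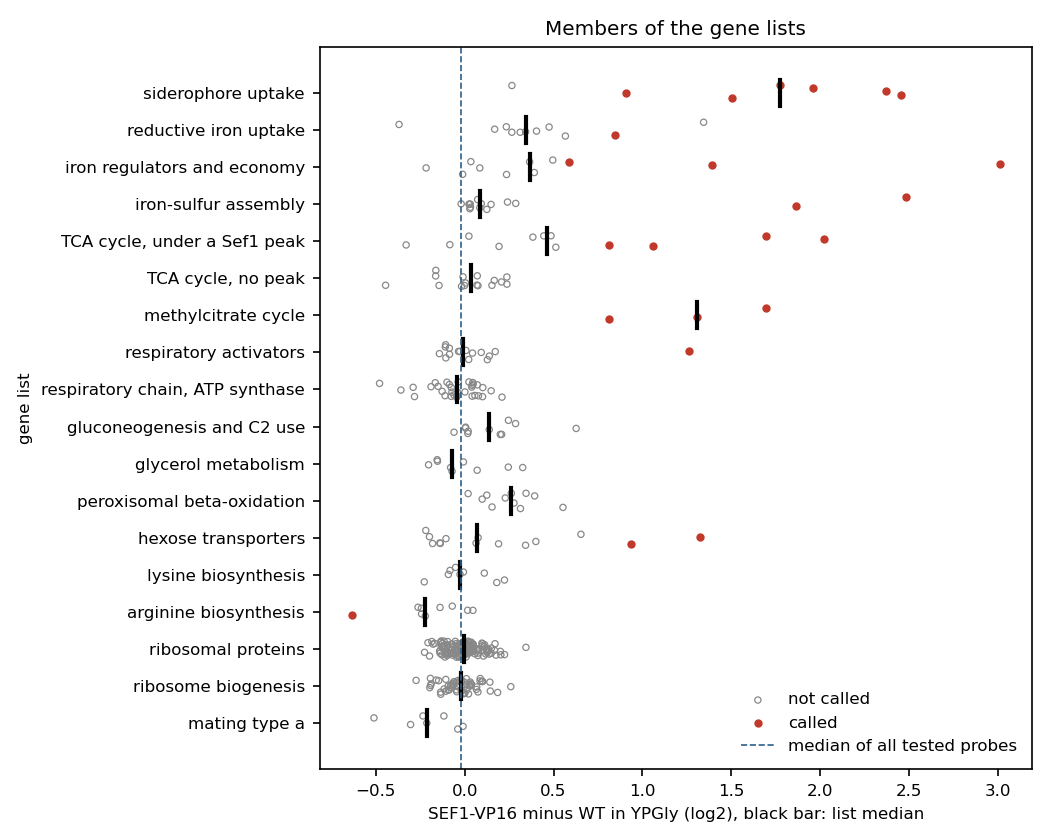
Difference SEF1-VP16 minus WT in YPGly (log2) on the x axis for the tested members of 18 gene lists, with filled points for called members, open points for the others, a black bar for the list median and a dashed line for the median of all tested probes (−0.02). Points are scattered vertically for legibility. Called members concentrate in the siderophore, methylcitrate and TCA lists, while ribosomal, respiratory chain and glycerol genes lie around 0.

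An amino acid permease gene, a pair of hexose transporter genes and an isomaltase gene were also called higher. CAN1, the arginine permease gene, which carries the can1-100 allele in all strains, was at −0.20, −0.22, −0.32 and −0.63 in SEF1-VP16 and at −1.71, −1.77, −1.98 and −1.74 in WT (1.46 ± 0.11, limma adjusted p 4.6e-05). Against sef1 it differed by 1.43 ± 0.10. HXT2, a glucose transporter gene, was at 1.67, 2.24, 2.39 and 1.88 in SEF1-VP16, at 0.34, 1.02, 0.48 and 1.05 in WT and at −1.04, −0.76, −0.65 and −0.54 in sef1. IMA5, an isomaltase gene, was at −3.06, −2.45, −2.27 and −2.35 in SEF1-VP16, at −4.29, −3.85, −4.19 and −3.60 in WT and at −5.00, −4.96, −5.07 and −5.17 in sef1. For HXT2 (1.32 ± 0.20, limma adjusted p 0.0064) and IMA5 (1.45 ± 0.19, adjusted p 0.0033) WT lay between the other strains without overlap, and the differences against sef1 were 2.79 ± 0.16 and 2.52 ± 0.15. HXT10, another hexose transporter gene, rose by 0.93 ± 0.12. No other of the 14 tested hexose transporter genes and none of the other 13 genes for maltose, isomaltose and sucrose use was called. The share called higher over all tested probes was 0.904%. HXT4 came closest, at 0.65 ± 0.14 (limma adjusted p 0.053), and it was called with quantile normalization (0.67), with the array median as the scale (0.68), when all 24 arrays were fitted at once (limma adjusted p 0.00128), with the replicate block (adjusted p 0.046), with slide as a term (1.29) and without WT replicate 2 (0.76). Hexose transporter and isomaltase genes have close paralogs, and probes of such genes may report more than 1 of them.

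Peroxisomal genes beside PEX21 were LPX1, a lipase gene, which was at 2.74, 2.79, 2.84 and 2.86 in SEF1-VP16 and at 1.51, 1.73, 1.58 and 1.93 in WT (1.12 ± 0.09, limma adjusted p 0.00011), and PEX9, a PTS1 import receptor gene, which rose by 0.88 ± 0.12 (adjusted p 0.0033). Peroxisomal beta-oxidation genes were not called. All 11 were above 0, from 0.02 to 0.55, with a median of 0.26. Of all 5641 tested probes 2472 were above 0, with a median of −0.02. The other probes called higher were AIM33, YLR297W, YEL067C, VMR1, ARI1, YLR126C, YML131W, LDO45, BIO5, IMD2, ECM8, KEL3 and YOL014W, at 0.61 to 1.07. Of these AIM33 and YOL014W reached 1.07 each. KEL3 lies next to FUM1 and rose by 0.78 ± 0.08.

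One increase concerned the edited locus itself. YBL065W, an open reading frame next to SEF1 on the opposite strand by its name, was at −1.43, −1.51, −1.25 and −1.39 in SEF1-VP16, at −4.36, −4.22, −4.09 and −4.35 in WT and at 0.01, 0.02, −0.12 and 0.01 in sef1. Both strains with an altered SEF1 locus were thus far above WT, and SEF1-VP16 differed from WT by 2.86 ± 0.08 (limma adjusted p 4.2e-08) and from sef1 by −1.37 ± 0.07 (adjusted p 9.5e-07). In YPD SEF1-VP16 differed from WT by −0.32 ± 0.05 at this probe and was not called. SEF1-VP16 and sef1 in YPGly also share a slide that WT does not. Slide and an altered locus therefore cannot be told apart for this probe, and the part of Sef1 activity was not tested.

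The 11 decreases were smaller. NFG1, a negative regulator gene of filamentous growth, was at −4.78, −4.21, −4.26 and −4.25 in SEF1-VP16 and at −3.04, −3.22, −3.22 and −3.12 in WT (−1.22 ± 0.12, limma adjusted p 0.00046). APS1, the small subunit gene of a clathrin adaptor, was at −2.38, −2.26, −2.44 and −2.77 in SEF1-VP16 and at −1.55, −1.34, −1.18 and −1.45 in WT (−1.08 ± 0.12, limma adjusted p 0.00082). These were the only decreases of 2-fold or more. OPT2, an oligopeptide transporter gene, was at −5.26, −5.58, −5.71 and −5.53 in SEF1-VP16 and at −4.14, −4.69, −4.49 and −4.80 in WT (−0.99 ± 0.15, limma adjusted p 0.0055), and lost its call with the other background correction (−0.64, adjusted p 0.061).

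CYB5, the cytochrome b5 gene, was at −2.70, −2.06, −2.19 and −2.19 in SEF1-VP16, at −1.51, −1.48, −1.59 and −1.52 in WT and at −0.79, −0.89, −0.94 and −0.99 in sef1. ERG5, a sterol desaturase gene, was at −0.27, −0.21, −0.42 and −0.22 in SEF1-VP16, at 0.63, 0.22, 0.54 and 0.24 in WT and at 0.77, 0.76, 0.64 and 0.56 in sef1. CYB5 fell by 0.76 and ERG5 by 0.69 against WT (limma adjusted p 0.011 and 0.0062). For CYB5 the 3 strains stood apart in the order SEF1-VP16, WT and sef1 from low to high. ARG1, the argininosuccinate synthase gene, was at −1.41, −1.68, −1.86 and −1.59 in SEF1-VP16, at −0.93, −0.92, −1.09 and −1.06 in WT and at −0.63, −0.44, −0.59 and −0.60 in sef1. ARG1 fell by 0.63 (limma adjusted p 0.0069) and was the only one of 9 arginine synthesis genes called, with a list median of −0.22. Over all tested probes 0.195% were called lower, with a median of −0.02. PCS60, a peroxisomal oxalyl-CoA synthetase gene, AMN1 and SCW11, which act in the separation of daughter cells, TPO1, a polyamine exporter gene, and HO, the mating type switching endonuclease gene, fell by 0.63 to 0.73. HO (−0.11) and TPO1 (−0.49) were not called with slide as a term, nor was SCW11 (−0.56, limma adjusted p 0.0039, under the fold change minimum).

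The same 62 probes were set against sef1 within a slide. This comparison shares the SEF1-VP16 arrays with the one against WT, so values are given side by side and their likeness is no result. SEF1-VP16 against sef1 gave 174 calls over all tested probes (3.08%), 111 higher (1.97%) and 63 lower (1.12%). With the array median as the scale the split was 129 and 39. Of the 51 probes higher against WT, 43 were also called higher against sef1, 7 were not called and 1, YBL065W, was called lower. Of the 11 lower against WT, 10 were also called lower and SCW11 (−0.41 ± 0.09) was not. The 7 without a call were YOL014W (−0.11), IMD2 (−0.06), KEL3 (0.22), PET9 (0.32), MLS1 (0.48), BIO5 (0.52) and VMR1 (0.55). For YOL014W and IMD2 the sef1 arrays were at the SEF1-VP16 level. YOL014W averaged −5.01 ± 0.35 in SEF1-VP16, −6.08 ± 0.40 in WT and −4.90 ± 0.13 in sef1 (SD, n = 4 each), and IMD2, an IMP dehydrogenase gene, −4.27 ± 0.09, −4.90 ± 0.30 and −4.21 ± 0.13 in the same order. SEF1-VP16 and sef1 share a slide, so for these probes a slide effect and an effect of the altered SEF1 locus cannot be told apart. Differences were larger against sef1 than against WT for ARI1, an aldehyde reductase gene (2.12 ± 0.09 and 0.77 ± 0.11), and ECM8 (1.27 ± 0.08 and 0.61 ± 0.10).

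In YPD the same pair of strains shared no array with the YPGly comparison and again lay on different slides. There 516 probes were called (9.15%), of which 319 (5.66%) were higher and 197 (3.49%) lower. With the array median as the scale the split was 228 and 284. Of the 51 probes higher in YPGly, 23 were called higher in YPD (45.1% of the 51 and 7.21% of the 319), 25 were not called and 3 were called lower. Of the 11 lower in YPGly, 1 (OPT2, −0.59) was called lower in YPD, 2 were called higher and 8 were not called. The difference in YPGly minus that in YPD, an interaction fitted over 16 arrays, was called at 597 probes (10.6%), of which 218 (3.86%) were above 0 and 379 (6.72%) below. The split was 378 and 223 with the array median as the scale. Slide and medium cannot be told apart in that test. With the array median as the scale the median interaction of all tested probes shifted by 0.12, from −0.04 with the 75th percentile to 0.08.

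**Figure D5:**
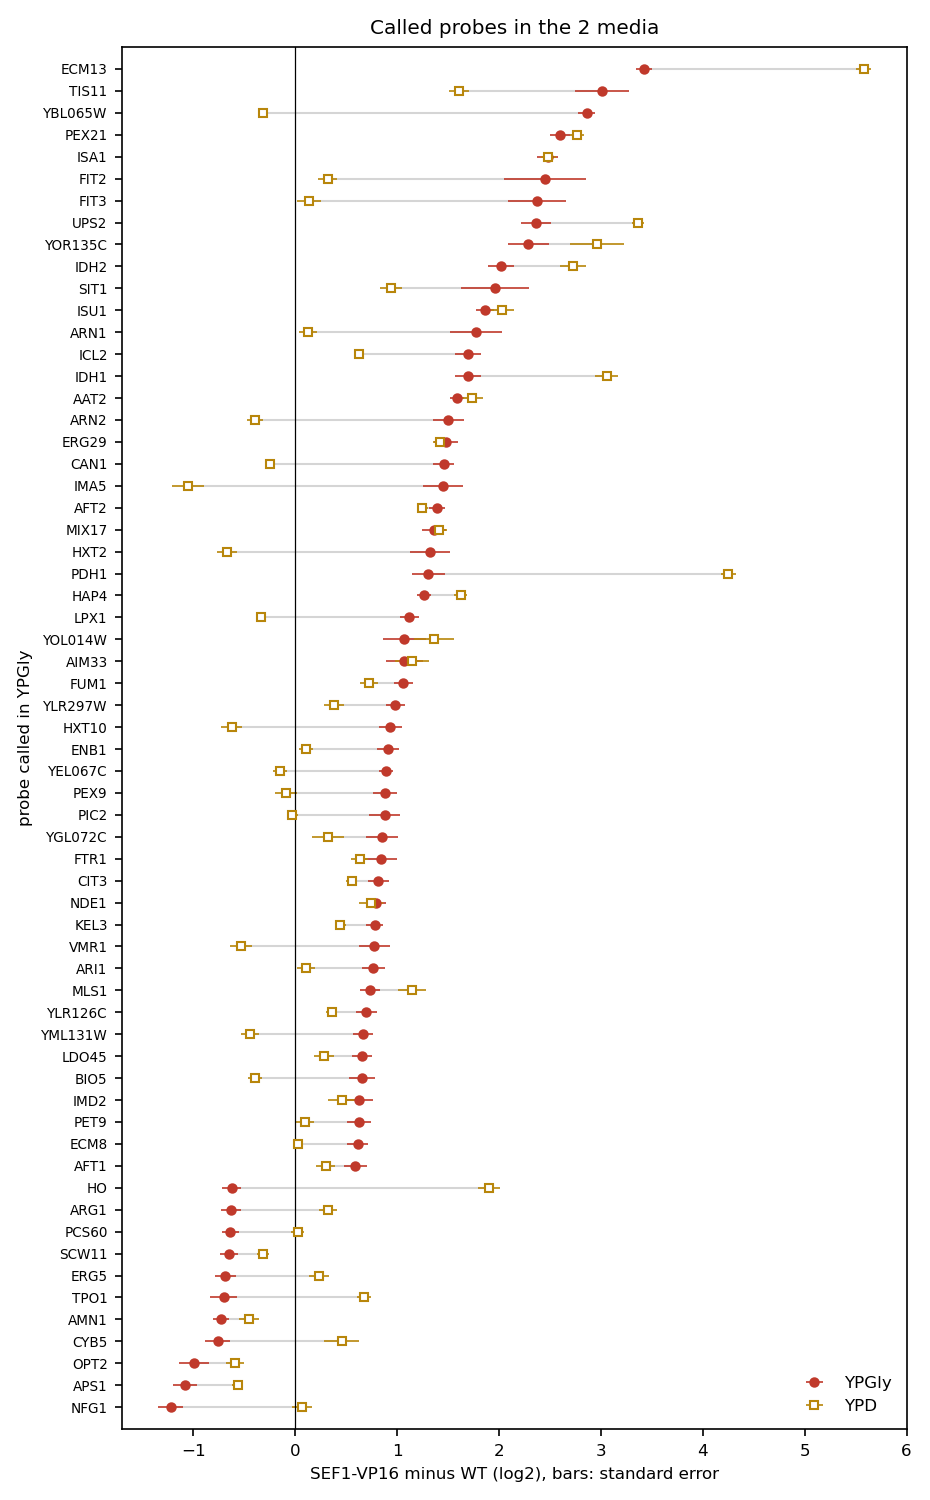
Difference SEF1-VP16 minus WT (log2, bars are standard errors, n = 4 each) of the 62 probes called in YPGly, in YPGly as filled red circles and in YPD as open squares, ordered by the value in YPGly. The squares lie to the right of the circles for ECM13, PDH1 and IDH1, near them for ISA1, AFT2, AAT2 and MIX17, and near 0 or below it for FIT2, FIT3, ARN1, ARN2, CAN1, IMA5 and HXT2.

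For 25 of the 51 probes called higher the interaction was not called. Its estimate was −0.0019 ± 0.13 for ISA1, −0.16 ± 0.12 for PEX21, −0.17 ± 0.15 for ISU1, −0.15 ± 0.13 for AAT2, 0.14 ± 0.09 for AFT2 and −0.05 ± 0.15 for MIX17 (n = 4 in each of the 4 groups). A group of 5 differed less in YPGly than in YPD. These were PDH1 (1.31 in YPGly and 4.25 in YPD), ECM13 (3.42 and 5.58), IDH1 (1.69 and 3.06), UPS2 (2.36 and 3.37) and IDH2 (2.02 and 2.72), the only probes of the 51 with a called interaction in this direction. A set of 21 differed more in YPGly. It held 5 of the siderophore genes, FIT2 (2.45 in YPGly and 0.32 in YPD), FIT3 (2.37 and 0.13), ARN1 (1.77 and 0.13), ARN2 (1.504 and −0.39) and ENB1 (0.91 and 0.10), and TIS11 (3.01 and 1.61). The 7 siderophore genes averaged −3.76 ± 0.16 in SEF1-VP16 and −3.87 ± 0.04 in WT in YPD, and −0.23 ± 0.16 and −1.83 ± 0.49 in YPGly (SD over 4 arrays). SIT1 was the exception, called higher in YPD too (0.94 ± 0.11, limma adjusted p 0.00013), with an interaction of 1.02 ± 0.39 that was not called (adjusted p 0.055). In YPD the strains differed little in the mean of the list, and both were far below their level in YPGly, a contrast that crosses slides.

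HXT2 (1.32 in YPGly and −0.67 in YPD), IMA5 (1.45 and −1.06) and HXT10 (0.93 and −0.62) were called in opposite directions in the media. HO (−0.63 and 1.90) and TPO1 (−0.70 and 0.68) were so the other way round. The interaction was called for all 5, at 1.99 ± 0.24, 2.51 ± 0.27, 1.55 ± 0.16, −2.53 ± 0.15 and −1.38 ± 0.16. The tally over lists also differed. Of 56 ribosome biogenesis genes none was called in YPGly (median −0.02) and 24 were higher in YPD (median 0.55), beside 5.66% of all tested probes. The interaction was called at 26 of them, all below 0, beside 6.72% of all tested probes. Of 15 trehalose and glycogen genes none was called in YPGly (median −0.15) and 10 were lower in YPD (median −0.67), beside 3.49% of all tested probes. The interaction was called at 8 of them, all above 0, beside 3.86% of all tested probes.

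Ribosomal protein genes, whose 138 probes averaged 1.497, 1.96, 1.91 and 1.87 on the SEF1-VP16 arrays and 1.60, 2.01, 1.65 and 2.01 on the WT arrays, overlapped between the strains, with no call and a median difference of −0.0037. No call was made either among 9 genes of glycerol metabolism (−0.20 to 0.33), 11 of gluconeogenesis and use of C2 compounds (−0.06 to 0.63), 18 heat shock genes (−0.25 to 0.36), 15 antioxidant genes (−0.25 to 0.20) or 9 of lysine synthesis (−0.23 to 0.22). MFA2, a pheromone gene of mating type a, passed the adjustment at −0.51 ± 0.08 (limma adjusted p 0.0062) but was under the fold change minimum. It was called lower against sef1 (−0.92 ± 0.07, limma adjusted p 1.8e-05) and with slide as a term (−0.999).

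Binding and position were then set beside the calls as a description. The study assigned genes to Sef1 ChIP-seq peaks, and its assignment is used here as far as it is held. Of 60 tested genes under the strongest peaks, 19 were called higher and 1, TPO1, lower, with a median of 0.29. Of 517 tested genes under other peaks 8 were called higher and 2 lower, and of 5064 under no peak 24 and 8. ECM13, PEX21, ISA1, ISU1, UPS2, IDH1, IDH2, ICL2, PDH1, AAT2, HAP4 and FUM1 were among the 19. AFT1, AFT2, FTR1, CIT3, IMA5, MIX17, ERG29 and YOR135C were the 8 under other peaks. TIS11, FIT2, FIT3, SIT1, ARN1, ARN2, ENB1, CAN1 and HXT2 were among the 24 under no peak. Of the 62 probes, 59 could be placed in the gene order of the RefSeq annotation (assembly R64), and 15 of them formed 8 pairs at most 2 places apart. The 6 pairs of like direction were FIT2 and FIT3, PDH1 and CIT3, FUM1 and KEL3, SIT1 and CAN1, SIT1 and YEL067C, and NDE1 and LDO45. In the other 2, ISA1 rose beside TPO1, which fell, and UPS2 beside APS1, which fell.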

How the data were processed

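Total RNA was reverse transcribed from oligo-dT primers, labelled with 1 dye and hybridised to Agilent yeast arrays. The authors extracted spot intensities with Agilent Feature Extraction 10.5.1.1, and the deposited scanner intensity values (processed signal) are background-corrected and not scaled between arrays. The deposited log2 table of the authors is scaled to the 75th percentile of each array, as comparison with the scanner values showed, and served as an alternative only.

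Here log2 processed signal minus the 75th percentile of the array was taken, the 2 spots of a probe were averaged, and 5641 of 6256 probes with a mean intensity of at least 200 in one of the groups were tested with limma 3.58.1 (lmFit and eBayes) in R 4.3.3, with Benjamini-Hochberg adjustment. Each comparison was fitted on its own groups only. No counts exist for arrays, and the number of arrays, 4 a group, limits the precision. The samples are labelled as biological repeats. The slide term was a fit of strain, medium and slide over all 24 arrays, which assumes the same strain difference in both media. It has as many terms as there are groups of strain and medium. Its SEF1-VP16 estimate is therefore the difference against sef1 in YPGly plus that of sef1 minus WT in YPD. It is a different contrast, made without the WT arrays in YPGly, and not a slide-corrected value of the YPGly comparison. Gene names came from the array and, for 5756 probes, from RefSeq (assembly R64). For this comparison 5 data sets were simulated, with 200 changed probes among 5641 in each. Differences of 1, 2 and 3 (log2) were given to 50 probes each. The other changed probes differed 1.5-fold, which is the calling minimum, and their share called is not given here. Noise was drawn separately for each probe and array, without deviations shared by the probes of an array. Of the differences of 1, 96% were called, as were 100% of those of 2 and 3 and 0.0221% of unchanged probes. Whether these shares hold for the arrays themselves, where slide and strain cannot be told apart, was not tested.

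All probes called in YPGly are named, and uncalled ones only where a list or the study had singled them out. Members and lists were chosen with earlier results of these data known. Alternatives were other normalizations, background corrections, intensity and fold minimums, the methods' test, a single fit, the replicate number as a block and leaving out each array. The replicate numbers did not pair the samples. Normexp on the median signals was added after the data had been seen.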

Additional observations from a re-analysis of the deposited data

Results flagged for a closer look

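Among 152 groups of 4 arrays examined for the probes named here, 2 held an array that stood apart by Dixon's criterion, which chance does at about 1 group in 20. SEF1-VP16 replicate 1 in YPGly was the highest of its group for PEX21 (1.25) and the lowest for NFG1 (−4.78).

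The difference between SEF1-VP16 and WT depended on the medium, by the interaction in limma, for 38 of the 76 named probes, most of them named for their call in YPGly, beside 10.6% of all tested probes. The value given is the difference in YPGly minus that in YPD, on the log2 scale. Iron genes had positive values, namely FIT3 (2.24), FIT2 (2.13), ARN2 (1.90), ARN1 (1.65), TIS11 (1.40), ENB1 (0.80) and FIT1 (0.78). Sugar and amino acid transport and isomaltose use gave IMA5 (2.51), HXT2 (1.99), CAN1 (1.70), HXT10 (1.55) and HXT4 (1.31). Peroxisomal and mitochondrial genes with positive values were LPX1 (1.45), ICL2 (1.07), PEX9 (0.97), PIC2 (0.90) and ICL1 (0.60). YBL065W beside SEF1 reached 3.18. The other positive values were those of VMR1 (1.31), YML131W (1.11), BIO5 (1.05), YEL067C (1.04), ARI1 (0.66) and YLR297W (0.60).

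Negative values came from ECM13 (−2.16), UPS2 (−1.005), PDH1 (−2.94) and the isocitrate and aconitase genes IDP2 (−1.64), IDH1 (−1.36), ACO1 (−0.98) and IDH2 (−0.70), and from genes lower in SEF1-VP16 in YPGly, namely HO (−2.53), TPO1 (−1.38), NFG1 (−1.29), CYB5 (−1.22), ARG1 (−0.96), ERG5 (−0.92) and PCS60 (−0.66). Slide and medium cannot be told apart in these values.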

How the results depend on the processing

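Of the 62 probes called, 28 kept the call under every alternative other than a higher fold minimum, 22 of them at 2-fold too, 46 whenever 1 array was left out, and none changed sign. The count of calls was 50 to 72 with 1 array left out, the increases 42 to 54 and the decreases 8 to 18, the last without SEF1-VP16 replicate 1. It was 103 without a fold minimum (32 lower), 31 at 2-fold (29 higher and 2 lower), 33 by the methods' test (28 and 5), and 173 with slide as a term (126 and 47). In the single fit of 24 arrays 22 were lower. Against sef1, 1282 probes passed without a fold minimum and 52 at 2-fold. In YPD these counts were 2716 and 114, and for the interaction 1803 and 136. The replicate number as a block gave 67 calls (54 higher and 13 lower). Same-numbered SEF1-VP16 and WT arrays correlated in their deviations with r of 0.331, 0.289, −0.328 and 0.268, and the block ended the calls of IMD2, FTR1 and YGL072C.

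Besides FIT2, FIT3, SIT1 and ARN1, the methods' test ended the calls of IMA5, HXT2, PDH1, YOL014W, AIM33, PEX9, PIC2, YGL072C, FTR1, VMR1, ARI1, YLR126C, YML131W, LDO45, BIO5, IMD2, PET9, ECM8, AFT1, HO, ARG1, ERG5, TPO1, CYB5 and OPT2, at adjusted p from 0.0501 (PDH1) to 0.157 (YOL014W). The sign turned for SEF1 (1.08), FIT1 (−0.070), ICL1 (−0.34) and FRE1 (−0.25) with slide as a term and for ICL1 (−0.031) with quantile normalization. The estimate with slide as a term leaves out the WT arrays in YPGly and contains the difference against sef1 in YPGly. That difference was −0.09 for FIT1, −0.04 for ICL1, −0.28 for FRE1 and 6.02 for SEF1. The cause of the turn with quantile normalization was not tested. The slide term also ended the calls of YOL014W (0.34), KEL3 (0.48), BIO5 (0.55) and IMD2 (0.57). Leaving out 1 array ended calls of 16 genes. Besides SIT1, FTR1 and AFT1 these were AIM33 (without WT replicate 1), ARG1 and PCS60 (SEF1-VP16 replicate 3), HO (WT replicate 4), PIC2 (SEF1-VP16 replicate 4), ECM8 (any of 3 arrays), YGL072C (any of 4), BIO5, PET9 and VMR1 (any of 5), and IMD2, TPO1 and YOL014W (any of 6). Their estimates then were 1.03, −0.56, −0.58, −0.57 and 0.82 for the first 5 named. Normexp on mean signals was not run, as that column is not in the tables used here.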

Other observations

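Sugar use was set side by side in both media. Of 14 maltose, isomaltose and sucrose genes 6 were called lower in YPD (3.49% of all tested probes), with a median difference of −0.45, and 1 was called higher in YPGly (0.904% of all tested probes), with a median of 0.09. Of 14 hexose transporter genes, beside the same shares, 6 were called lower in YPD, with a median of −0.51, and 2 were called higher in YPGly, with a median of 0.07. These lists contain close paralogs.

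The 11 peroxisomal beta-oxidation genes had a median difference of −0.42 in YPD. Against sef1 in YPGly 5 of them were called higher in SEF1-VP16 (1.97% of all tested probes), with a median of 0.55. Against WT in YPGly none was called, with a median of 0.26. The difference between these comparisons was not tested.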
